A study of Mus musculus with 6 samples.

Results

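The 10 genes Hspa5, Xbp1, Ddit3, Atf3, Atf4, Atf6, Trib3, Chac1, Herpud1 and Ern1, of the unfolded protein response and the integrated stress response, were followed by symbol in RNA sequencing of mouse jejunal intestinal epithelial cells (IEC). They were named as a group for their known function, and all 10 are among the 19616 genes of the deposited table. IEC were enriched by EDTA treatment from the jejunum of 3-month-old mice of mixed C57BL/6J, 129SV and CD1 background, with 1 library per mouse. The 3 control mice (C1, C3 and C3-3) are controls by their labels and wild-type by the study's methods. The 3 Hdac1/2-deleted mice (H1, H5 and H9) carry villin-Cre and Hdac1-/-, Hdac2-/- alleles. Villin-Cre acts throughout the intestinal epithelium from before birth and spares immune or stromal cells that remain in the preparation. The comparison asks whether the RNA of these stress response genes differed between control and Hdac1/2-deleted IEC.

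Proteins that enter the endoplasmic reticulum (ER) are folded there by chaperones, and unfolded proteins accumulating in its lumen activate sensors in its membrane. IRE1alpha (Ern1) splices the Xbp1 RNA, ATF6 is cleaved to release a transcription factor, and PERK (Eif2ak3) phosphorylates eIF2alpha, which slows translation and favours synthesis of ATF4. The last step is shared with other eIF2alpha kinases and is called the integrated stress response. Secretory cells of the intestine, such as Paneth and goblet cells, carry a large load of ER proteins and rely on this system. Splicing, cleavage and phosphorylation leave the gene count as it is, so the values below are levels of RNA and no measure of sensor activity.

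Promoter sequences are shown for 3 of the genes because they hold short motifs through which ATF6, XBP1 or ATF4 are known to act. They come from RefSeq (build GRCm38.p6), which gave a promoter for 9 of the 10 genes (none for Atf6), and run 5′ to 3′ on the gene's strand from 250 bases before the start site to 50 after it. Capitals mark the motifs, namely the ER stress response element (ERSE, CCAAT, any 9 bases, CCACG) in Hspa5, ERSE-II (ATTGG, any 1 base, CCACG) and the C/EBP-ATF response element (CARE, TGATGNAA) in Herpud1, and CARE in Chac1. Both strands were searched, and all CARE matches lie on the opposite strand, where they read as the reverse complement. The Hspa5 window is chr2:34771840-34772139 (plus strand), that of Herpud1 is chr8:94386179-94386478 (plus strand) and that of Chac1 is chr2:119350992-119351291 (plus strand).
Hspa5: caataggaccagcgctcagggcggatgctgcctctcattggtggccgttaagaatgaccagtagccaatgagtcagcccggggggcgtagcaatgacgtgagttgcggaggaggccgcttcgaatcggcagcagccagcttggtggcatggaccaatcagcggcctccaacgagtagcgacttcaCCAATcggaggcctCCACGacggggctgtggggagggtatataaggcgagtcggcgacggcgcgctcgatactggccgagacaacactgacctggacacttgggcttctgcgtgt
Herpud1: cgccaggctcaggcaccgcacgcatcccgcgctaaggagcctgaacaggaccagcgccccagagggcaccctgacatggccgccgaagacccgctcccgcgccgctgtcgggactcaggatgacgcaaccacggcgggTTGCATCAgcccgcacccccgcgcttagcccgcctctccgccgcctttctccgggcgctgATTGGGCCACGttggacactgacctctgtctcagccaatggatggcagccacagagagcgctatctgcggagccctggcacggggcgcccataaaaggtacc
Chac1: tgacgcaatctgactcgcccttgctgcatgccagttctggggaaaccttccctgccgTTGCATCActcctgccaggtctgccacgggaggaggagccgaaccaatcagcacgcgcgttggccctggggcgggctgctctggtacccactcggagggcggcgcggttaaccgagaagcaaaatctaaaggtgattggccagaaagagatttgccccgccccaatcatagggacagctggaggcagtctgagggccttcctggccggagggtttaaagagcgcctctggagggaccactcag

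Counted from +1 at the start site, the ERSE of Hspa5 begins at -65, the ERSE-II of Herpud1 at -52, and the CARE matches of Herpud1 and Chac1 at -112 and -193. CARE matches were also found in Atf3 (-110) and Trib3 (15). Of 32851 promoters of the same length, 0.119% held ERSE, 0.0365% ERSE-II and 3.97% CARE. These are matches of letters and not measured binding.

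Between 36111035 (H5) and 65902344 (C1) reads per mouse were counted on genes, and the 10 genes together took 0.0914% to 0.158% of them, with the highest share in H5. Levels are given as CPM, the reads of a gene scaled to a common library size by library total and TMM factor, at which 3 counts correspond to 0.0405 to 0.0790 CPM, a floor that covers counting error only. Hdac1 RNA was 10.8-fold lower in Hdac1/2-deleted IEC, whereas Hdac2 RNA overlapped between the groups (log2 fold change -0.18, adjusted p = 0.44 over all genes tested, edgeR quasi-likelihood test). The sources used here do not say which part of Hdac2 was deleted, and the count covers the whole gene. How complete the Hdac2 deletion was in these libraries was not tested. Several libraries stood apart. H5 had the highest level among the Hdac1/2-deleted mice for 20 of 26 ER chaperone genes and 14 of 14 cytosolic heat shock genes, against 33.8% of all tested genes. C3 held Hspa1a, an inducible heat shock gene, at 28.9 CPM against 0.619 in C1 and 0.339 in C3-3, and was the only mouse with Y-linked transcripts at more than trace levels (Eif2s3y at 26.6 CPM, at most 0.0675 in the other mice). Xist, which is transcribed in female cells, was at 0.234 CPM in C3 against 63.5 to 122 CPM in the other mice. By these transcripts C3 was the only male, so sex was not balanced between the groups. The part of sex in the differences below was not tested. C3-3 had the highest Trib3 and Chac1 levels of the 6 mice. The labels give no batch.

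Of the 10 genes, all of which passed the filter on low counts, 1 was decreased and 0 were increased under the limits used throughout, a Benjamini-Hochberg adjusted p of 0.05 or less together with a 2-fold or larger change. Across the 15618 genes tested, 12.7% were decreased and 12.4% increased. The decreased gene was Herpud1. Without the fold limit the calls were the same, 1 lower and 0 higher, against 20.3% and 20.5% of all genes. At an unadjusted p under 0.05, edgeR gave 1 gene higher (Atf3) and 2 lower (Herpud1 and Atf4). DESeq2 gave 0 increased genes at 2-fold and 1 higher without the fold limit (Atf3). The levels of both groups did not overlap for 2 genes, Herpud1 and Atf4, against 53.2% of all genes tested. The median log2 fold change was 0.03 over the 10 genes and -0.01 over all tested genes, and the median size of the change regardless of sign was 0.19 against 0.59.

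**Figure D1:**
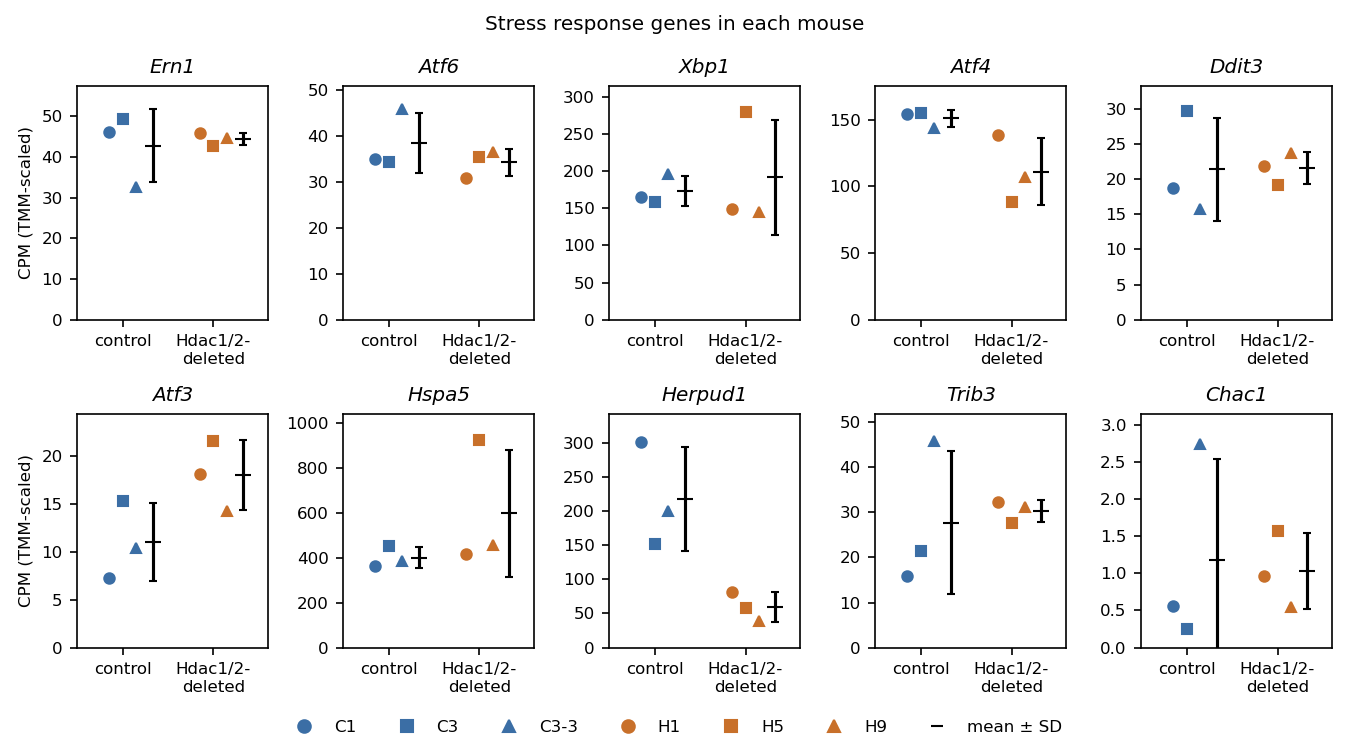
Level of each of the 10 genes in CPM (vertical axes, from 0, scaled per gene) in the 3 control (blue) and 3 Hdac1/2-deleted (orange) mice, with the mean ± SD (n = 3) in black; the lower end of the Chac1 control bar falls below 0 and is not drawn. Herpud1 is lower in every Hdac1/2-deleted mouse than in any control mouse, Hspa5 and Xbp1 stand high in H5 alone, and Chac1 and Trib3 stand high in control mouse C3-3.

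Among the sensors, Ern1 (ENSMUSG00000020715, chromosome 11, 106394650 to 106487852, minus strand, GRCm38) encodes the kinase and endoribonuclease IRE1alpha. Its level was 46.2, 49.4 and 32.6 CPM in control mice C1, C3 and C3-3, and 45.8, 42.7 and 44.5 in Hdac1/2-deleted mice H1, H5 and H9. The Hdac1/2-deleted levels lay within the control range. The log2 fold change was 0.05 (95% interval -0.33 to 0.44, adjusted p = 0.83, edgeR quasi-likelihood test). Atf6 (ENSMUSG00000026663, chromosome 1, 170704674 to 170867771, minus strand) encodes the membrane-bound precursor of a transcription factor. It was at 35.0, 34.3 and 45.8 CPM in C1, C3 and C3-3 and at 30.8, 35.4 and 36.4 CPM in H1, H5 and H9. The groups overlapped, with a log2 fold change of -0.17 (-0.53 to 0.19, adjusted p = 0.44, same test). The intervals of Ern1 and Atf6 leave out a 2-fold difference in either direction, although they do not show that the groups were alike.

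The sensors and their partners, Ern1 and Atf6 among them, were read from a list of 19 tested genes. Of these, 1 was increased and 1 decreased (5.26% each), against 12.4% and 12.7% of all tested genes. Without the fold limit 4 were higher and 4 lower (21.1% each), near the 20.5% and 20.3% of all tested genes. Leaving out H5 or C1 gave 2 increased, and leaving out H9 or C3 gave 3 decreased, H1 or C1 2. Eif2ak3, which encodes PERK, had a log2 fold change of -0.25 (adjusted p = 0.205, edgeR quasi-likelihood test), Eif2ak4, the kinase that responds to amino acid shortage, of -0.10 (0.79), and Ern2, the IRE1 paralog of mucosal secretory cells, of 0.04 (0.90). Of the other eIF2alpha kinases, Eif2ak1 was lower (log2 fold change -0.95, adjusted p = 0.00087, same test) and Eif2ak2 higher (0.77, 0.0079). Both were below 2-fold and passed the adjusted p limit in all 12 alternatives. Creb3l1 and Creb3l3, which encode ER-anchored transcription factors related to ATF6, moved in opposite directions. Creb3l1 rose from 23.4 ± 3.75 to 58.8 ± 15.3 CPM (mean ± SD, n = 3), and Creb3l3, abundant in enterocytes, fell from 817 ± 118 to 361 ± 61.8 CPM. With counts scaled by library totals only, Creb3l3 was at -0.99 and no longer reached 2-fold.

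Xbp1 (ENSMUSG00000020484, chromosome 11, 5520659 to 5525893, plus strand) encodes the transcription factor made from the spliced RNA, and the counts do not separate its spliced and unspliced forms. Its level was 165, 158 and 196 CPM in C1, C3 and C3-3 and 149, 280 and 145 CPM in H1, H5 and H9. H5 was above every control mouse and the other Hdac1/2-deleted mice were below every control mouse. The log2 fold change was 0.14 (standard error, SE, 0.26, 95% interval -0.44 to 0.72, adjusted p = 0.69, edgeR quasi-likelihood test), and -0.23 without H5 (adjusted p = 0.29).

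Atf4 (ENSMUSG00000042406, chromosome 15, 80255184 to 80257541, plus strand) encodes the transcription factor of the integrated stress response, whose output is set largely by translation of its RNA. Control levels lay close together, at 154, 155 and 144 CPM in C1, C3 and C3-3, and the Hdac1/2-deleted levels were 138, 87.9 and 107 CPM in H1, H5 and H9. All Hdac1/2-deleted mice lay below all control mice, with H1 nearest to them. The log2 fold change was -0.44 (SE 0.17, 95% interval -0.84 to -0.05) and did not pass the adjusted p limit (0.072, edgeR quasi-likelihood test). Without H1 it was -0.63 with an adjusted p of 0.018, and with library totals only -0.24 with an adjusted p of 0.35 in the same test.

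Ddit3 (ENSMUSG00000025408, chromosome 10, 127290774 to 127296288, plus strand) encodes CHOP, a factor linked to cell death under lasting ER stress. It was at 18.7, 29.7 and 15.7 CPM in C1, C3 and C3-3 and at 21.9, 19.2 and 23.6 CPM in H1, H5 and H9. The control mice spanned the Hdac1/2-deleted values, and the log2 fold change was 0.01 (-0.52 to 0.55, adjusted p = 0.97, edgeR quasi-likelihood test). Its exons overlap by 68 bases with Mars on the opposite strand, which was itself higher (log2 fold change 0.86, adjusted p = 0.0046, same test), and by 13 bases with Gm4189. A separate protein-coding gene record, also named Ddit3 and not among the deposited genes, shares 105 exonic bases with it on the same strand, which counting by strand would not separate. The kit marked strand, but the sources used here do not say whether counting used it.

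Atf3 (ENSMUSG00000026628, chromosome 1, 191170296 to 191218039, minus strand) encodes a stress-induced factor downstream of ATF4 and of other signals. Its level was 7.32, 15.4 and 10.4 CPM in C1, C3 and C3-3 and 18.2, 21.6 and 14.3 CPM in H1, H5 and H9. H9 lay below C3, so the groups overlapped, with a log2 fold change of 0.71 (SE 0.28, 95% interval 0.08 to 1.34, adjusted p = 0.071, edgeR quasi-likelihood test). Without C3, the mouse with high Hspa1a and Y-linked transcripts, it was 1.03 with an adjusted p of 0.016 and passed both limits. The part of the C3 library in this difference was not tested. In the list of 15 immediate early genes, a class that also responds to handling, C3 had the highest control level for 9. This is 60% of the list, against 34.2% of all tested genes, and the part of handling was not tested.

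**Figure D2:**
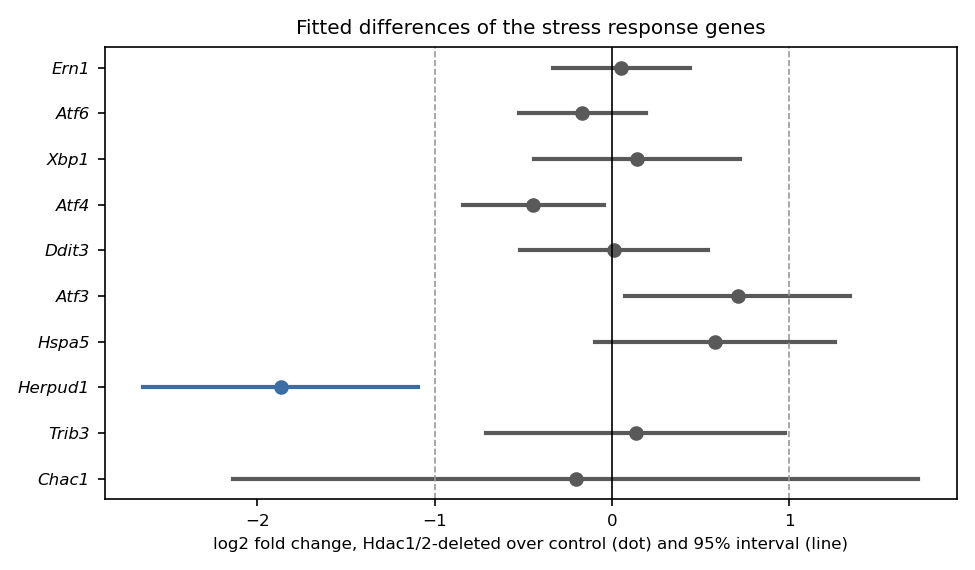
Fitted log2 fold change of each gene, Hdac1/2-deleted over control (dots, horizontal axis), with 95% intervals (lines, 3 mice per group); dashed lines mark 2-fold and the decreased gene is blue. The whole interval of Herpud1, -2.64 to -1.09, lies beyond 2-fold lower, and the interval of Chac1 spans -2.14 to 1.73.

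Hspa5 (ENSMUSG00000026864, chromosome 2, 34771970 to 34777547, plus strand) encodes BiP, the main chaperone of the ER lumen and a standard target of ATF6 through the ERSE shown above. It was at 364, 451 and 385 CPM in C1, C3 and C3-3 and at 415, 924 and 456 CPM in H1, H5 and H9. H1 lay within the control range, H9 was just above it and H5 was far above all other mice. The log2 fold change was 0.58 (SE 0.30, 95% interval -0.10 to 1.26, adjusted p = 0.15, edgeR quasi-likelihood test), and 0.13 without H5 (adjusted p = 0.60).

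Herpud1 (ENSMUSG00000031770, chromosome 8, 94386438 to 94395377, plus strand) encodes an ER membrane protein that helps to assemble the HRD1 complex, which removes misfolded proteins for degradation. Its level was 301, 151 and 201 CPM in C1, C3 and C3-3 and 81.7, 58.5 and 38.7 CPM in H1, H5 and H9. The highest Hdac1/2-deleted mouse, H1, was below the lowest control mouse, C3. The mean fell 3.65-fold, from 218 ± 76.1 to 59.6 ± 21.5 CPM (SD, n = 3), or -1.87 on the log2 scale (SE 0.33, edgeR quasi-likelihood test, adjusted p = 0.0033). It was called decreased in all 12 alternatives that kept the fold limit, at -2.16 to -1.55, and the smallest change was found without C1. In bulk RNA, fewer cells of a type and less RNA per cell cannot be told apart.

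Markers of several IEC types also differed between the groups, where 12.7% of all tested genes were decreased and 12.4% increased. The summed level of 9 Paneth cell markers was 3340 to 5323 CPM in control and 182 to 284 CPM in Hdac1/2-deleted mice, and 8 of the 9 were decreased. That of 8 goblet cell markers was 18437 to 21059 CPM against 6586 to 13683 CPM (3 of 8 decreased), and that of 11 enterocyte markers 88548 to 102091 CPM against 36535 to 49956 CPM (4 of 11 decreased, 1 increased). Markers of plasma and B cells, which are rich in ER, summed to 78.3 to 867 CPM in control mice, highest in C1, which also had the highest Herpud1, and to 179 to 500 CPM in Hdac1/2-deleted mice (1 of 10 tested increased, 1 decreased). The 12 T cell and intraepithelial lymphocyte markers summed to 161 to 608 CPM against 88.3 to 192 CPM (2 of 12 decreased). The 8 measured macrophage, dendritic cell and granulocyte markers summed to 68.8 to 79.7 CPM against 34.3 to 48.8 CPM, with 1 increased and 1 decreased. The decreased one was Cd14 (mean 58.2 against 14.5 CPM), the most abundant of them, and without it, a step chosen after its values were seen, the sums were 11.8 to 20.4 CPM in control and 20.4 to 37.9 CPM in Hdac1/2-deleted mice, the opposite direction. Those of fibroblasts and smooth muscle summed to 5.53 to 72.0 CPM against 2.68 to 7.57 CPM (5 of 8 tested decreased), and those of endothelium to 5.42 to 8.01 CPM against 9.84 to 11.5 CPM (1 of 4 tested increased). The 8 pan-epithelial markers stayed abundant, at 13581 to 15469 CPM against 10724 to 13242 CPM (1 of 8 increased). The part of any of these cell types in the Herpud1 decrease was not tested.

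Among 23 tested genes of ER-associated degradation, 2 were decreased (8.70%) and 0 increased, against 12.7% and 12.4% of all tested genes. DESeq2 also gave 0 increased, and edgeR gave 7 higher at an unadjusted p under 0.05. Without the fold limit 5 were higher (21.7%) and 3 lower (13.0%), against 20.5% and 20.3% of all tested genes. The number higher was 2 without H5, 2 without C3-3 and 3 without C1 or without H9. The decreased genes were Herpud1 and its paralog Herpud2, which fell from 30.4 ± 2.73 to 14.5 ± 1.03 CPM (log2 fold change -1.07, adjusted p = 0.00059, edgeR quasi-likelihood test). Herpud2 did not reach 2-fold without C3 or with library totals only. Syvn1, the ubiquitin ligase of the HRD1 complex and named here for the ratio below, was higher by 0.54 (adjusted p = 0.030, same test). Derl3 was scarce, at 0.497 ± 0.467 CPM in control and 0.697 ± 0.188 CPM in Hdac1/2-deleted mice. The list's median was 0.10, and 0.011 without C1.

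Within each library, Herpud1 was set against genes of the same response. Of 10 such ratios computed, 4 did not overlap between groups, where 53.2% of single tested genes did not. Of these ratios, 3 contain Herpud1 and so repeat its decrease. The other, Atf3 to Atf4, combines the Atf3 and Atf4 differences given above. The Herpud1 to Hspa5 ratio of CPM was 0.827, 0.336 and 0.521 in C1, C3 and C3-3 and 0.197, 0.0633 and 0.0848 in H1, H5 and H9. The difference in mean log2 ratio was -2.37 (exact two-sided permutation p = 0.1, the smallest that 3 against 3 mice allow, 0.25 after adjustment over the 10 ratios). The difference was -1.95 for Herpud1 to Xbp1 and -2.39 for Herpud1 to Syvn1 (same p). The Atf3 to Atf4 ratio was 0.0476, 0.0992 and 0.0722 in C1, C3 and C3-3 and 0.131, 0.246 and 0.134 in H1, H5 and H9. All Hdac1/2-deleted mice lay above all control mice, with a difference of 1.22 on the log2 scale (exact permutation p = 0.1, adjusted 0.25). The other ratios, Hspa5 to Hsp90b1 and to Atf6, Trib3, Chac1 and Ddit3 to Atf4, and Trib3 to Ddit3, overlapped between groups, with exact permutation p of 0.2 to 0.9.

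Trib3 (ENSMUSG00000032715, chromosome 2, 152337422 to 152344032, minus strand) encodes a pseudokinase induced by ATF4 and CHOP that restrains ATF4 activity. It was at 16.0, 21.4 and 45.9 CPM in C1, C3 and C3-3 and at 32.3, 27.7 and 31.3 CPM in H1, H5 and H9. The Hdac1/2-deleted mice lay close together between the control extremes. The fitted difference was 0.13 on the log2 scale (SE 0.36, 95% interval -0.71 to 0.98, adjusted p = 0.80, edgeR quasi-likelihood test). Without C3-3 it was 0.71 with an adjusted p of 0.026, below the 2-fold limit.

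Chac1 (ENSMUSG00000027313, chromosome 2, 119351229 to 119354381, plus strand) encodes an enzyme that degrades glutathione and is a sensitive target of ATF4. It was the least abundant of the 10 genes, with 37, 14 and 146 counts in C1, C3 and C3-3 and 72, 60 and 34 counts in H1, H5 and H9. These correspond to 0.558, 0.252 and 2.75 CPM and to 0.972, 1.58 and 0.553 CPM. The control mice spanned all Hdac1/2-deleted mice. On the log2 scale the difference was -0.20 (SE 0.83, 95% interval -2.14 to 1.73, adjusted p = 0.87, edgeR quasi-likelihood test), and 1.34 without C3-3 (adjusted p = 0.13), so that neither a 2-fold rise nor a 2-fold fall could be told from no difference here.

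Per kilobase of merged exon, Hspa5 (94.6 CPM per kilobase) and Herpud1 (93.3) led the 10 genes in control IEC, followed by Atf4 (64.0) and Xbp1 (53.4), then Trib3 (13.1), Ddit3 (12.5), Ern1 (5.23), Atf3 (5.12), Atf6 (4.16) and Chac1 (0.724). In Hdac1/2-deleted IEC, Hspa5 (142) stayed first and Herpud1 (25.6) came after Xbp1 (58.9) and Atf4 (47.1). The control order of Hspa5 and Herpud1, Herpud1 and Atf4, Trib3 and Ddit3, and Ern1, Atf3 and Atf6 lay within the spread between mice. So did the order of Xbp1 and Atf4 in Hdac1/2-deleted IEC, where Xbp1 was above Atf4 in H5 only.

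Genes regulated by ATF4 and CHOP were read from a list of 31 tested genes, which includes Ddit3, Atf3, Trib3 and Chac1. Of these, 8 were increased (25.8%) and 2 decreased (6.45%), against 12.4% and 12.7% of all tested genes. Without the fold limit 9 were higher (29.0%) and 5 lower (16.1%), against 20.5% and 20.3% of all tested genes. The number increased was 6 without H5 and 7 without H1 or without C3-3. H5 was the highest Hdac1/2-deleted mouse for 18 of the 31 genes (58.1%), against 33.8% of all tested genes. The number decreased was 5 without C3-3, 3 without H5 or without C3, and 1 without H9. Large changes stood on both sides of a median of 0.03 (-0.03 without H5). Eif4ebp1, which encodes the translation repressor 4E-BP1, rose from 13.0 ± 4.98 to 90.8 ± 4.24 CPM (log2 fold change 2.81, adjusted p = 0.00017, edgeR quasi-likelihood test). Jdp2, a repressor of AP-1 sites, rose from 1.27, 1.91 and 1.34 CPM in C1, C3 and C3-3 to 8.15, 9.47 and 6.14 CPM in H1, H5 and H9. Stc2, a secreted glycoprotein, was called increased from 3, 9 and 2 counts in C1, C3 and C3-3 to 135, 65 and 47 counts in H1, H5 and H9. Of those called outside the naming rule, and named after their values were seen, Atf5 was higher by 2.02 and the amino acid transporter Slc7a5 by 1.92 on the log2 scale.

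The decreased genes of this list were Nupr1 and Pycr1. Nupr1, a stress-induced chromatin protein, fell from 6.72 ± 2.77 to 0.278 ± 0.215 CPM, and Pycr1, of proline synthesis, from 1.47 ± 0.232 to 0.555 ± 0.181 CPM. Pycr1 did not pass without H1 or without H9. Asns, asparagine synthetase and a standard ATF4 target, was at 19.0, 13.5 and 15.7 CPM in C1, C3 and C3-3 and at 8.23, 15.3 and 4.58 CPM in H1, H5 and H9, with a log2 fold change of -0.78 (adjusted p = 0.15, edgeR quasi-likelihood test). Ddit4, an inhibitor of mTORC1, had a log2 fold change of -1.65 (adjusted p = 0.079, same test) over control levels of 81.2, 39.3 and 13.8 CPM. Ppp1r15a, the subunit that directs the phosphatase to eIF2alpha, was at -0.09 (0.76).

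**Figure D3:**
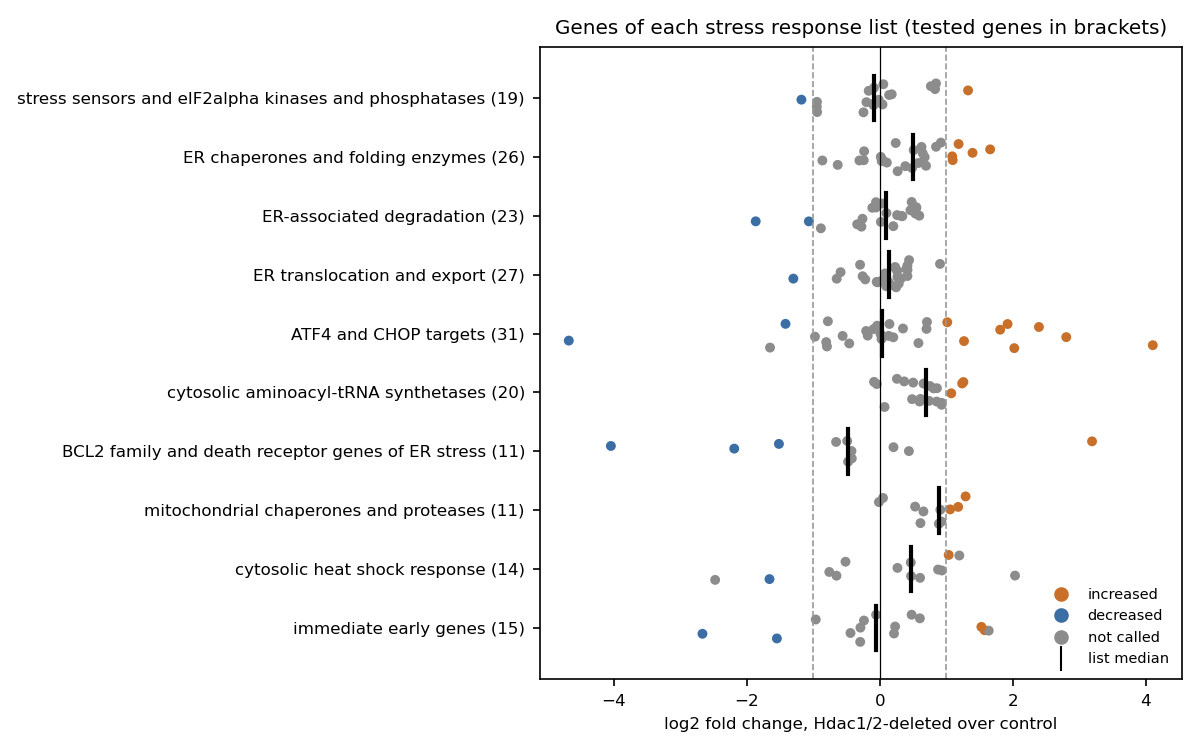
Log2 fold change (horizontal axis, Hdac1/2-deleted over control) of every tested gene in 10 lists of stress response genes, with the number tested in brackets; orange and blue dots are called increased and decreased, grey dots are not called, black bars are list medians and dashed lines mark 2-fold. The medians of the aminoacyl-tRNA synthetases (0.70) and mitochondrial chaperones (0.89) stand to the right of 0. The ATF4 and CHOP targets spread from -4.68 (Nupr1) to 4.11 (Stc2) around a median of 0.03. These ends rest on low levels, in Hdac1/2-deleted mice for Nupr1 and in control mice for Stc2. Neither gene was tested where at least 10 counts in every sample were required.

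The cytosolic aminoacyl-tRNA synthetases, which charge tRNAs and many of which ATF4 can induce, had a median log2 fold change of 0.70 against -0.01 over all tested genes. Of 20 genes, 16 were higher without the fold limit and 0 lower (80.0% against 20.5% of all genes; edgeR gave 0 lower at an unadjusted p under 0.05 and DESeq2 gave 0), and 3 passed 2-fold. These were Farsb (1.26), Vars (1.24) and Iars (1.08). Without C3-3, Iars was below 2-fold and 10 of the 20 were higher, and 6 passed 2-fold without C1 and 5 without H1. Mitochondrial chaperones and proteases moved in the same direction, with 9 of 11 higher (81.8%) and 3 of them past 2-fold (27.3%). Over all tested genes these shares were 20.5% and 12.4%. In edgeR 0 were lower, also at an unadjusted p under 0.05, and DESeq2 gave 0. Hspd1, the mitochondrial chaperonin HSP60, rose from 210 ± 57.7 to 513 ± 35.1 CPM, and Lonp1 (1.18) and Trap1 (1.06) also passed; without C1, 5 passed.

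The ER chaperones and folding enzymes, with Hspa5 among them, had a median log2 fold change of 0.50, close to that of Hspa5. Of 26 tested genes, 5 were increased (19.2%) and 0 decreased (0 by DESeq2), against 12.4% and 12.7% of all tested genes. Without the fold limit 12 were higher (46.2%) and 2 lower (7.69%), against 20.5% and 20.3% of all tested genes. At an unadjusted p under 0.05, 3 were lower in edgeR. Creld2, a disulfide isomerase of the ER, was at 28.7, 28.7 and 24.1 CPM in C1, C3 and C3-3 and at 52.5, 143 and 62.5 CPM in H1, H5 and H9 (log2 fold change 1.66, adjusted p = 0.011, edgeR quasi-likelihood test). Ero1l, the oxidase that supplies disulfide bonds, was at 26.0, 36.1 and 29.3 CPM and at 90.2, 63.7 and 86.6 CPM (1.40, adjusted p = 0.00047, same test). H5 was the lowest Hdac1/2-deleted mouse for Ero1l. Hyou1 (1.19), Pdia4 (1.10) and Dnajb11 (1.09) were called with H5 highest.

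Without H5, 2 of the 26 chaperone genes were increased, Creld2 (1.09) and Ero1l (1.54), 8 were higher without the fold limit, and the list's median was 0.39 in place of 0.50. Without C3-3, 6 were higher, and without C1 1 was decreased. Hyou1 also fell out without C1, C3 or C3-3. Hsp90b1 (GRP94) was higher by 0.85 (adjusted p = 0.0033, edgeR quasi-likelihood test) and Sdf2l1 by 0.70 (0.020). Calr was at 0.49 (adjusted p = 0.0496 in edgeR, just within the limit) and passed it in 6 of 12 alternatives. Dnajb9, a target of XBP1, was at -0.24 (0.34), with 19.2 to 26.9 CPM in control and 17.3 to 23.4 CPM in Hdac1/2-deleted mice.

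**Figure D4:**
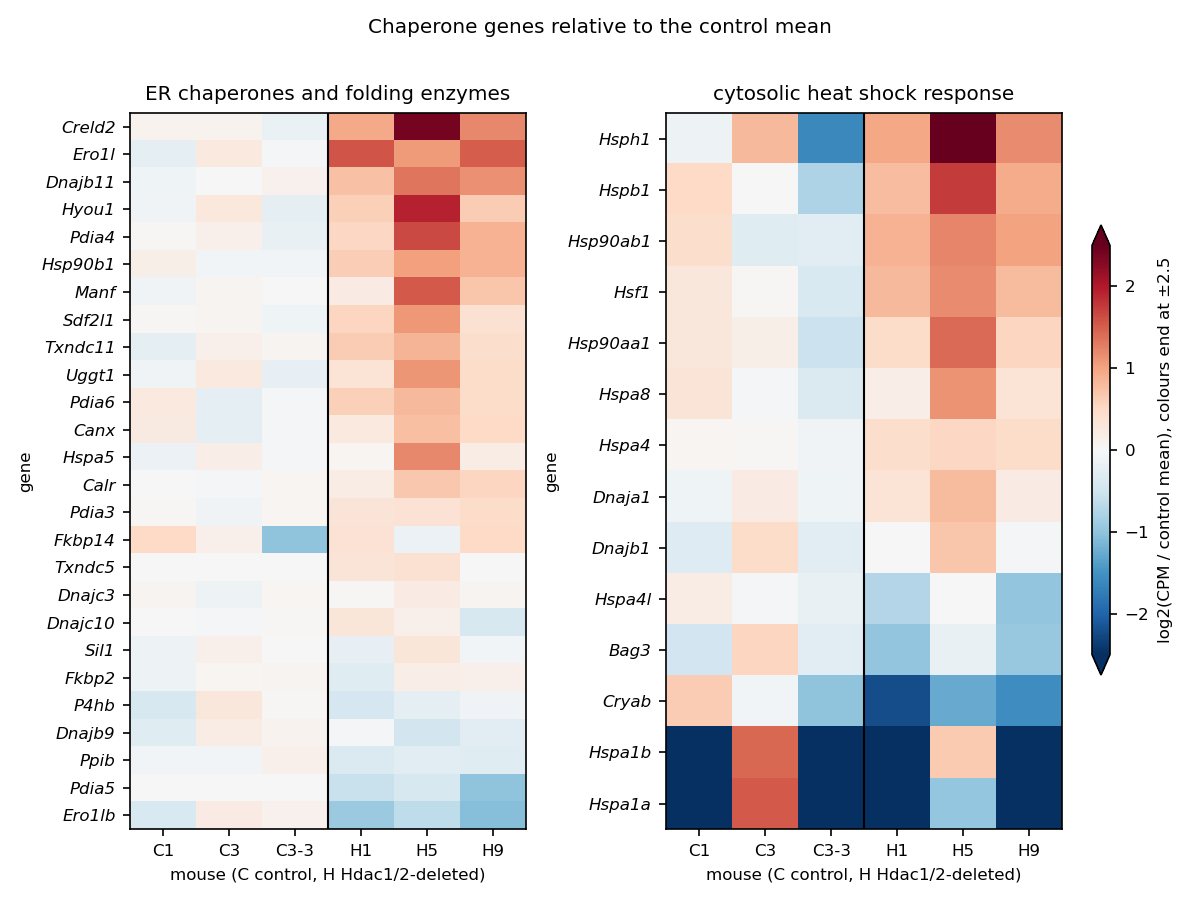
Level of each ER chaperone gene (left) and cytosolic heat shock gene (right) in each mouse relative to the gene's control mean, as log2 of the ratio of CPM (colour, limited to ±2.5), with genes ordered by their mean in Hdac1/2-deleted mice. Among the Hdac1/2-deleted mice, H5 is highest for 20 of 26 chaperones and for 14 of 14 heat shock genes. Of all mice, control mouse C3 is highest for Hspa1a and Hspa1b.

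Cytosolic heat shock genes, which answer unfolded protein outside the ER, followed H5 most closely. Of 14 tested genes, 1 was increased, Hsp90ab1 (1.04, adjusted p = 0.0070, edgeR quasi-likelihood test), and it was below 2-fold without H5, C3 or C3-3. Without C1, 3 were increased, and without H1 or H9, 2. The decreased gene, Cryab, lost its call in 9 of 12 alternatives. Increased and decreased genes were 7.14% of the list each, against 12.4% and 12.7% of all tested genes. The median deviation of the list from each gene's mean over the 6 mice was 0.72 on the log2 scale in H5 and between -0.69 (C3-3) and 0.05 in the other mice. The heat shock list was thus highest in the mouse with the highest Hspa5 and Xbp1 and the lowest library total. Its part in those levels was not tested.

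**Figure D5:**
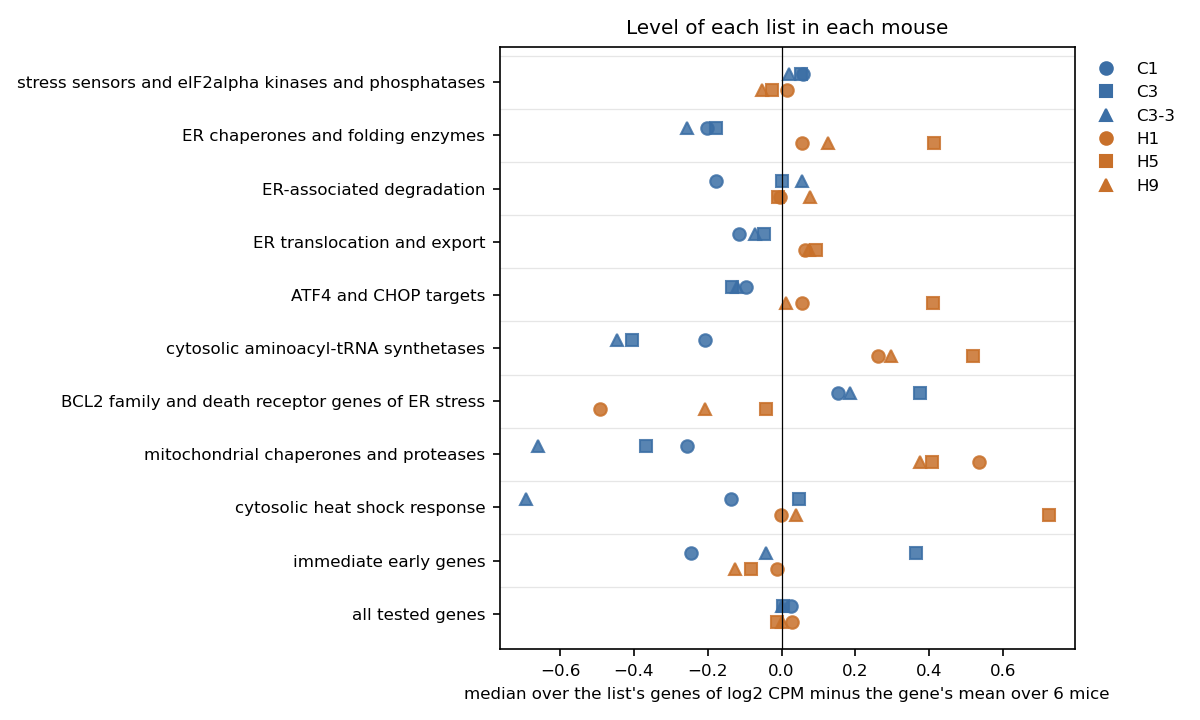
Median over each list of the log2 CPM of a gene minus its mean over the 6 mice (horizontal axis), for control (blue) and Hdac1/2-deleted (orange) mice. The mice of both groups overlap in the ER-associated degradation, heat shock and immediate early lists and over all tested genes, and are separate in the other 7 lists, by least for the sensors (highest Hdac1/2-deleted mouse 0.015, lowest control mouse 0.020). In the heat shock list H5 (0.72) and C3-3 (-0.69) stand at the extremes.

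The BCL2 family and death receptor genes listed for ER stress had a median of -0.48. Of 11 tested genes, 1 was increased (9.09%) and 3 decreased (27.3%), against 12.4% and 12.7% of all tested genes. Bid, a pro-apoptotic member, rose from 6.45 ± 1.83 to 59.2 ± 4.40 CPM (log2 fold change 3.20, adjusted p = 2.0e-05, edgeR quasi-likelihood test). Casp12, an ER-associated caspase, was called decreased from 36, 35 and 34 counts in C1, C3 and C3-3 to 2, 1 and 3 counts in H1, H5 and H9. Pmaip1 (NOXA) was at 190, 68.8 and 50.5 CPM in control mice and at 21.9, 23.6 and 22.4 CPM in Hdac1/2-deleted mice, a call lost without H1 or H9. The anti-apoptotic Bcl2 fell from 6.58 ± 2.13 to 2.30 ± 0.130 CPM, and Bbc3 (PUMA), a direct target of CHOP, was at 0.21 (adjusted p = 0.55, same test).

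Of 27 tested genes of ER translocation and export, 1 was decreased (3.70%) and 0 increased, against 12.7% and 12.4% of all tested genes. DESeq2 also gave 0 increased, and edgeR gave 6 higher at an unadjusted p under 0.05. The list's median was 0.14. Without C3, 1 was increased. The decreased gene was Kdelr3, a receptor that returns ER proteins from the Golgi, from 5.71 ± 0.583 to 2.31 ± 0.372 CPM. Of the 15 immediate early genes, Egr1 (1.58) and Nr4a1 (1.53) were increased and Btg2 (-2.67) and Jun (-1.55) decreased. These are 13.3% in each direction, near the 12.4% and 12.7% of all tested genes. The median was -0.05 (0.15 without C3 and 0.05 without H9).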

How the data were processed

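Poly(A) RNA of EDTA-enriched jejunal IEC was sequenced from 3 control and 3 Hdac1/2-deleted mice with a directional kit. The authors aligned the reads with STAR (2.4.0f1 per the submitters' processing notes) and deposited raw counts per gene. The methods name GRCm38 and the processing notes mm9, and the counting program and annotation are not given in the sources used here. The table also holds counts scaled per sample and the authors' own log fold changes, mean log CPM and p-values from DESeq and edgeR, which were not used. It holds no gene under 10 counts in total.

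Counts were filtered with filterByExpr (15618 of 19616 genes), normalized by TMM and fitted with edgeR 4.0.16 (robust quasi-likelihood, prior count 0.125, no covariates) and limma 3.58.1 in R 4.3.3, with Benjamini-Hochberg adjustment over all tested genes. Calls needed an adjusted p of at most 0.05 and at least 2-fold, the limits of the study's methods. The standard error (SE) is the log2 fold change divided by the square root of F. Within-library ratios were compared by exact permutation tests. The steps were tested on simulated data. Figures were drawn with matplotlib 3.10.9. Replicates are separate mice, by the labels.

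Positions and overlaps came from GENCODE M21 (GRCm38), matched by identifier for 19526 genes. The members, gene lists and marker lists were chosen with earlier results of these data known. Named were the 10 members, the targeted genes, and in each list the 3 largest called increases and decreases. Also named were the 13 genes Ern2, Eif2ak3, Eif2ak4, Hsp90b1, Calr, Dnajb9, Sdf2l1, Derl3, Asns, Ppp1r15a, Ddit4, Eif4ebp1 and Bbc3. The others (Atf5, Slc7a5, Syvn1, Mars, Pdia4, Dnajb11, Hspa1a, Hspa1b, Eif2s3y, Xist, Eif2ak1, Eif2ak2) were named after their values were seen. Of the listed genes, Fgf21 and Srp54a, and of the markers S100a8 and S100a9, had no row under those symbols, and Slc7a11, Bik and Hspb8 did not pass the filter. Alternatives were size factors by RLE, library totals only, DESeq2 1.42.0, no filter, at least 10 counts in every sample, a prior count of 2, each mouse left out (these 12 kept the fold limit), and no fold limit.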

Additional observations from a re-analysis of the deposited data

How the results depend on the processing

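Herpud1 stayed decreased under all 12 alternatives that kept the fold limit. Without a fold limit, 3198 genes were increased and 3168 decreased in place of 1944 and 1989. Library totals only shifted the median of all genes by 0.19 on the log2 scale and gave 2463 increased and 1538 decreased genes; on that scale Atf6 was at 0.021 and Chac1 at 0.0028. With each mouse left out in turn, 0 to 1 of the 10 genes were increased (1, Atf3, without C3), and log2 fold changes ran from 0.49 to 1.03 for Atf3, -0.23 to 0.31 for Xbp1, -0.16 to 0.33 for Ddit3, -0.14 to 0.71 for Trib3, -0.67 to 1.34 for Chac1 and -0.10 to 0.18 for Ern1. Signs changed for Xbp1 without H5, for Ddit3 without H9, C1 or C3-3, for Trib3 without C1 or C3, for Chac1 without H9 or C3-3, and for Ern1 without C3-3. The cause of these moves was not tested. Of 120 member values under alternatives, 11 changed sign and none of these passed the adjusted p limit. No paired analysis was possible because the groups compared carry no shared replicate labels: replicate numbers follow accession order, only name the mice, and tie no control mouse to an Hdac1/2-deleted mouse. Depth limits Chac1 most, at 14 to 146 counts per mouse.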
